A study of Homo sapiens with 8 samples.

Results

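The comparison set MDA231-LM2 (LM2 below) against its parent MDA-MB-231, both carrying a control hairpin, with 2 libraries a side. Its members were all genes that passed a filter on low counts across the 8 libraries of the series, 15923 of the 61552 in the count table, and no measured difference between the lines was used to choose them. A gene with reads in 1 line only could pass through that line. Besides control-hairpin LM2 (2 libraries) and control-hairpin MDA-MB-231 (2 libraries), the series holds LM2 and MDA-MB-231 with a short hairpin RNA against TAF7 (2 libraries each). TAF7 is a subunit of TFIID, the factor that places RNA polymerase II at promoters. The stated purpose of the study concerned TAF7. Because the libraries with the TAF7 hairpin share no library with the control-hairpin comparison, they gave a second measurement of the line difference under another hairpin. All cells were kept in medium with 10% fetal bovine serum. Whether the 2 libraries of a group came from separate cultures is not stated in the labels, so the p-values below measure only the spread between these libraries. Each line with each hairpin is a single label, and what the line brought and what introducing the hairpin into it brought cannot be told apart. The sequence of the control hairpin is not given in the sources used here.

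MDA-MB-231 is a human breast cancer line of the triple-negative kind, which lacks oestrogen receptor, progesterone receptor and amplified HER2, and its cells have a mesenchymal appearance. LM2 was obtained from it by selecting, in mice, cells that colonise the lung, so the lines share an ancestor and a genome that has drifted since. Derivatives of this kind are known for secreted proteases, cytokines and adhesion molecules that help cells to leave vessels and to settle in lung tissue.

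The 8 libraries held 17295627 to 20292291 counts in genes, and 1 read corresponded to 0.0488 to 0.0583 CPM (a count scaled to a fixed library total, with the TMM factor). CPM is not corrected for gene length, so levels below are compared within a gene and not between genes. Replicates correlated at 0.9966 to 0.9975 on log2 CPM (Pearson, across genes) and libraries of different lines with the control hairpin at 0.942 to 0.944. Library composition differed as well: the LM2 control libraries had reads in 24762 and 24490 genes against 23069 and 22783 in the MDA-MB-231 control libraries, and mitochondrially encoded genes took 5.95% and 5.77% of their counts against 3.96% and 3.39%. CDKN2A and CDKN2B, which lie in a region deleted in MDA-MB-231, had 0 reads in all 8 libraries, and their neighbour MTAP had 1 read in total (these 3 genes were chosen after their values were seen). ESR1, the oestrogen receptor, had 5 and 4 reads in LM2 and 3 and 1 in MDA-MB-231, PGR, the progesterone receptor, had 0 and 1 against 0 and 0, and both stayed under the filter. TAF7 had 195 and 197 CPM in LM2 against 179 and 185 CPM in MDA-MB-231 and was not called between the control libraries (edgeR adjusted p = 0.152). Its own line difference was not the same under the 2 hairpins (log2 fold change with the control hairpin minus that with the TAF7 hairpin, -0.34). In what follows a log2 fold change is LM2 over MDA-MB-231 (n = 2 libraries per line). The ± value, called its standard error, is its size divided by the square root of the test's F statistic. For large folds against few reads this can understate the uncertainty. CSF3, at 10.09, became 9.62 without MDA-MB-231 replicate 2 and 10.7 without replicate 3. A gene is called where edgeR's quasi-likelihood test gave a Benjamini-Hochberg adjusted p under 0.05 over all tested genes.

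The lines differed in most of the genes tested. With the control hairpin 5134 genes were higher and 5115 lower in LM2, 64.4% of all tested genes (32.2% higher, 32.1% lower), and 5674 were not called. Most differences were modest. The median absolute log2 fold change was 0.51 against a median standard error of 0.12, and the median over all genes was 0.02. At least 2-fold differences were called for 2190 genes higher (13.8%) and 1314 lower (8.25%) in LM2, and at least 4-fold differences for 905 (5.68%) and 421 (2.64%). The libraries of the lines did not overlap for 82.6% of genes. In bulk RNA, more transcript in every cell and more cells with the transcript cannot be told apart.

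**Figure D1:**
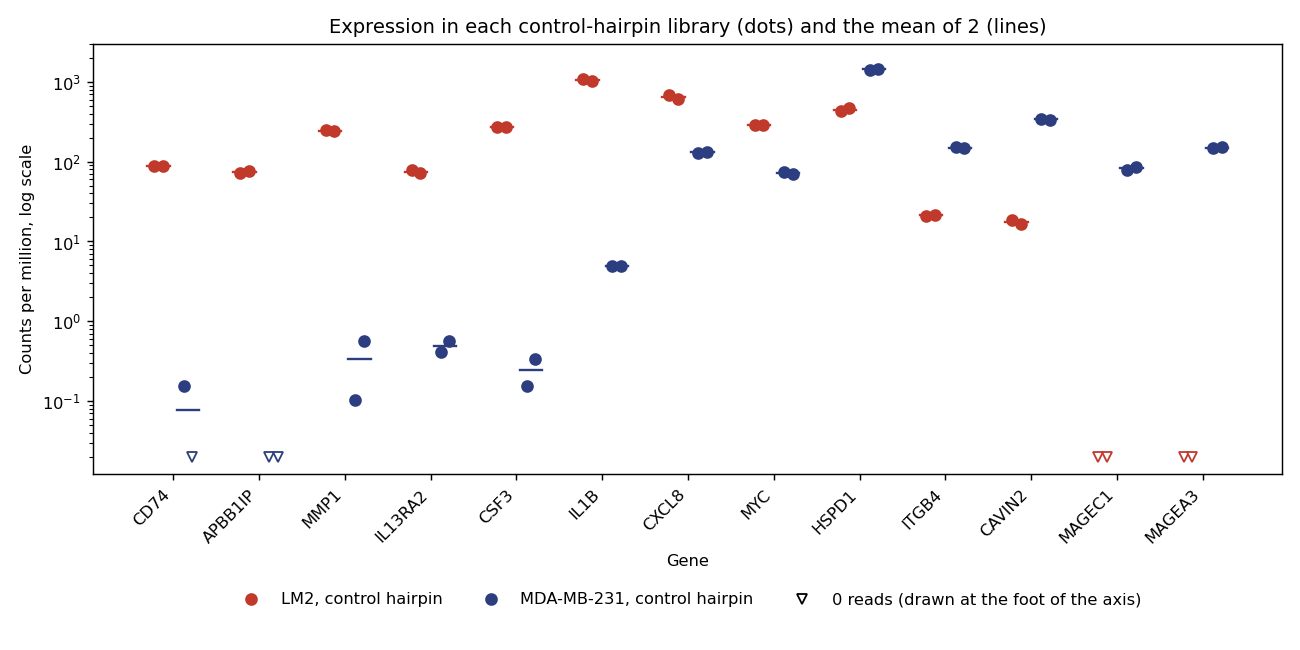
CPM (log axis) of 13 genes in each control-hairpin library, LM2 on the left and MDA-MB-231 on the right of each pair. Dots are libraries, short lines are means of 2 libraries and open triangles mark 0 reads. APBB1IP was at 72.9 and 75.9 CPM in LM2 against 0 reads in MDA-MB-231, and MAGEA3 at 0 reads in LM2 against 147 and 151 CPM in MDA-MB-231.

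The same line difference was measured again under the TAF7 hairpin. There 4924 genes were higher and 5028 lower in LM2, 62.5% of all tested genes (30.9% higher, 31.6% lower). Of the 5134 genes higher with the control hairpin, 3591 (69.9%) were also higher with the TAF7 hairpin, 199 were lower and 1344 were not called. Of the 5115 lower genes, 3781 (73.9%) were also lower, 218 were higher and 1116 were not called. Across genes the 2 sets of log2 fold changes had a Pearson correlation of 0.87 and a Spearman correlation of 0.75, which describe these genes and carry no test. Among the 1326 genes called with at least a 4-fold difference, 84.4% were called the same way under the TAF7 hairpin. The test of the difference between the 2 line differences (the interaction) called 4113 genes, 25.8% of all tested (11.9% and 13.9% by direction), of which 3173 were among the 10249 called between the control libraries. In 1892 of them the LM2 value relative to MDA-MB-231 was higher with the control hairpin and in 2221 lower, but limma on log2(FPKM + 1) values gave 2096 and 998, and a minimum log2 fold change of 1 gave 110 and 6, so that balance depended on the scale and on the threshold. For the line difference itself limma gave 5156 higher and 4763 lower with the control hairpin and 3994 higher and 5338 lower with the TAF7 hairpin. Groups of genes are described below by counts and medians over the members that passed the filter. The counts are to be read against the shares over all tested genes with the control hairpin, 32.2% higher and 32.1% lower. A gene near 0 reads in 1 line can pass through the other alone. The counts and medians therefore describe the tested members and support nothing further. With limma on log2(FPKM + 1), a scale that shrinks the fold change of low genes by construction, the medians of 20 of 47 lists were smaller by over 1.5 times.

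**Figure D2:**
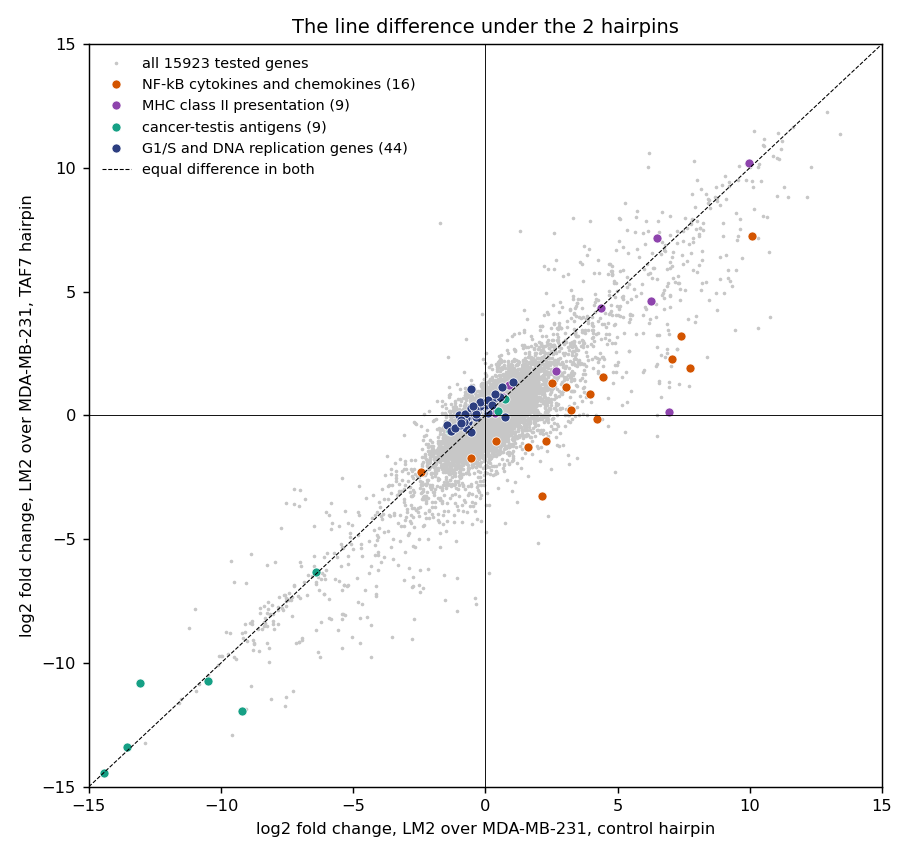
Log2 fold change of LM2 over MDA-MB-231 for the 15923 tested genes, with the control hairpin on the x axis and the TAF7 hairpin on the y axis. Most cancer-testis antigens lie at the lower left, near the dashed line of equal differences, class II genes lie at the right, and most NF-kB cytokines lie below the line. Genes with 0 reads in a line have a fitted value that depends on the prior count.

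The widest differences were in genes read in 1 line and silent, or nearly so, in the other. In 56 genes MDA-MB-231 had at most 3 reads over its 2 libraries and LM2 averaged at least 5 CPM, and 36 genes had the opposite pattern. Of the 56 genes, 38 had no read in MDA-MB-231, and 40 kept the pattern under the TAF7 hairpin. Of the 36 genes, 18 had no read in LM2 and 30 kept the pattern. Chromosome X carried 3 of the 56 and 10 of the 36, and 487 of the 15923 tested genes.

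APBB1IP, an adaptor that links Rap1 to integrin activation, had 72.9 and 75.9 CPM in LM2 against 0 and 0 in MDA-MB-231, at least 460-fold higher against a floor of 3 reads per library. SERPINB9, the inhibitor of granzyme B, had 51.7 and 53.3 CPM in LM2 against 0 and 0, at least 324-fold higher. SVIP, a small partner of the VCP ATPase, had 32.0 and 30.0 CPM against 0 and 0, at least 192-fold higher. All 3 were absent from both MDA-MB-231 libraries and read alike in both LM2 libraries. Others with no read in MDA-MB-231 included CPPED1 (at least 210-fold), PPP2R2C, a regulatory subunit of protein phosphatase 2A (at least 132-fold), NLRP2 (at least 98.9-fold), the glycosyltransferase GALNT14 (at least 88.6-fold) and the homeobox gene MSX2 (at least 86.9-fold). The neural adhesion molecule NRCAM had 16.5 and 16.2 CPM in LM2 against 0.104 and 0 CPM, a ratio of 304 with a 95% counting interval of 83.7 to 2513. PPP2R2C, SERPINB9, NLRP2, MSX2 and GALNT14 also had 0 reads in both MDA-MB-231 libraries with the TAF7 hairpin, where LM2 averaged 21.7, 33.5, 14.5, 8.98 and 18.5 CPM in that order.

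Among genes silent in LM2, those of the MAGE family led. Many MAGE genes are cancer-testis antigens: they are active in the testis, silent in most adult tissues by promoter methylation, and reactivated in some tumours. MAGEA3 had 0 and 0 reads in LM2 against 147 and 151 CPM in MDA-MB-231, at least 899-fold lower. MAGEC1 had 0 and 0 reads against 79.5 and 85.3 CPM, at least 496-fold lower. MAGEA12 had 0 and 0.0557 CPM against 47.5 and 51.1 CPM, a ratio of 1778 (95% counting interval 319 to 70265). The 4 libraries with the TAF7 hairpin had the same pattern, with MAGEA3 at 0 reads in LM2 against a mean of 152 CPM in MDA-MB-231 and MAGEC1 at 0 against 73.9 CPM. MAGEA6 (at least 351-fold lower) is a near copy of MAGEA3, so how reads were split between them is uncertain. Of the bases upstream of their starts 250 of 250 were identical in RefSeq, but the transcripts themselves were not compared. MAGEB2 was read in both lines, at 26.2 and 26.9 CPM in LM2 against 66.2 and 68.5 CPM in MDA-MB-231 (-1.34 ± 0.08). MAGED1 and MAGED2, members that most tissues express, were higher in LM2 (0.49 ± 0.09 and 0.73 ± 0.08). In all, 9 of 30 genes on the cancer-testis antigen list passed the filter, 7 of them lower and 2 higher. The list includes MAGED2, its highest member, which is not restricted to the testis. Since a gene silent in 1 line can pass only through the other, this count supports nothing further.

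The 150 bases upstream of the start are shown for 2 MAGE genes, those with the most reads in MDA-MB-231 among MAGE genes silent, or nearly so, in LM2. They are shown because these promoters are known to be set by methylation at CG dinucleotides, which are in capitals (RefSeq, GRCh38.p14, plus strand, chrX:152698644-152698793 for MAGEA3 and chrX:141903744-141903893 for MAGEC1).
MAGEA3: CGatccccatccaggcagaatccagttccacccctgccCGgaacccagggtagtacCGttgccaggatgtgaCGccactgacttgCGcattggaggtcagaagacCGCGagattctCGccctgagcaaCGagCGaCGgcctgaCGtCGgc
MAGEC1: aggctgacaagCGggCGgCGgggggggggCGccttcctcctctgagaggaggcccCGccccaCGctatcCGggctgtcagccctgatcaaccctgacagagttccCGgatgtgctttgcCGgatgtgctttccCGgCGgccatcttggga
They hold 13 and 11 CG dinucleotides, against a median of 14 (quartiles 9 and 19) over the tested genes with such a sequence. Methylation was not measured in the data used here.

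Outside this family, COX7B2, a testis-expressed form of a cytochrome c oxidase subunit, had 0 and 0 reads in LM2 against 49.7 and 50.9 CPM in MDA-MB-231, at least 303-fold lower. The secreted protein CCBE1, which takes part in lymphatic vessel growth, had 0 and 0 reads against 19.2 and 22.2 CPM, at least 124-fold lower. GABRA3, a GABA receptor subunit (at least 74.2-fold lower), and FOXR2, a forkhead factor on chromosome X (at least 97.3-fold lower), were also at 0 reads in LM2. CDH11, a cadherin of mesenchymal cells, had 0 and 0.0557 CPM in LM2 against 8.99 and 10.3 CPM in MDA-MB-231. With the TAF7 hairpin COX7B2, CCBE1 and GABRA3 again had 0 reads in both LM2 libraries and FOXR2 and CDH11 had 1 read each over both, where MDA-MB-231 averaged 65.4 CPM for COX7B2, 21.5 CPM for CCBE1, 12.4 CPM for GABRA3 and 9.05 CPM for CDH11, and had 12.8 and 13.2 CPM for FOXR2.

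Genes earlier tied to lung metastasis in this model did not move as a block. The list comes from earlier work on lung-homing MDA-MB-231 sublines, LM2 among them, so it is not independent evidence of a direction. Of its 21 tested members 10 were higher, 8 lower and 3 not called, with a median of 0.07. Several secreted or surface members were far higher in LM2. MMP1, the interstitial collagenase, had 252 and 240 CPM in LM2 against 0.104 and 0.559 CPM in MDA-MB-231 (9.54 ± 0.16, edgeR adjusted p = 7.15e-42). IL13RA2, the decoy receptor for interleukin-13, had 77.8 and 71.8 CPM against 0.416 and 0.559 CPM (7.25 ± 0.17). CXCR4, the receptor for CXCL12, was low throughout, with 1.49 and 1.17 CPM in LM2 against 0 and 0 in MDA-MB-231, at least 8.20-fold higher. MMP1 and IL13RA2 had nearly the same difference with the TAF7 hairpin (9.51 and 7.44), and their interactions were not called. CXCR4 had 1.40 and 1.16 CPM in LM2 with the TAF7 hairpin, against 0 and 0 reads in MDA-MB-231.

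VCAM1, an adhesion molecule for integrin alpha 4, was among those that depended on the hairpin: it had 9.30 and 7.97 CPM in LM2 against 0 and 0 in MDA-MB-231 (at least 53.3-fold higher), but a fitted log2 fold change of 3.55 with the TAF7 hairpin, where neither line was at 0 throughout (interaction 6.77, edgeR adjusted p = 0.00675). PTGS2, which encodes cyclooxygenase 2, had 270 and 249 CPM in LM2 against 13.7 and 12.9 CPM (4.29 ± 0.09), and its difference was 2.27 with the TAF7 hairpin. SPARC, a matrix glycoprotein, was higher (1.37 ± 0.07), as was the keratin gene KRT81 (1.41 ± 0.08). EREG, the EGFR ligand epiregulin, was lower, with 157 and 161 CPM in LM2 against 310 and 321 CPM in MDA-MB-231 (-0.99 ± 0.07). ID1, an inhibitor of helix-loop-helix factors, was slightly lower (-0.28 ± 0.07), and the lipase inhibitor ANGPTL4 was not called, at 82.7 and 81.0 CPM in LM2 against 81.8 and 83.6 CPM in MDA-MB-231.

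Genes for proteases and for the matrix and its receptors were more often higher than lower in LM2. Among metalloproteinases and their inhibitors 16 of 23 were higher and 4 lower (median 0.97, and 0.32 with the TAF7 hairpin; 0.40 with limma on log2(FPKM + 1) under the control hairpin). Besides MMP1, the membrane-bound collagenase MMP14 had 401 and 419 CPM in LM2 against 104 and 106 CPM in MDA-MB-231 (1.97 ± 0.07), and the gelatinase MMP2 had 5.45 and 5.24 CPM against 0.104 and 0 CPM, a ratio of 99.2 (95% counting interval 27.1 to 825). TIMP2, which both inhibits MMP2 and helps MMP14 to activate it, had 357 and 376 CPM against 100 and 105 CPM (1.83 ± 0.07). ADAMTS1 and MMP19 were higher as well (2.75 ± 0.16 and 2.66 ± 0.18). The interaction was called for MMP14 and TIMP2, though small (0.42 and 0.46).

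In the plasminogen activator system, 6 of 14 were higher and 4 lower, and the median of 0.07 became -0.02 without LM2 replicate 2. SERPINB2, an inhibitor of urokinase, had 88.6 and 99.3 CPM in LM2 against 0.572 and 0.615 CPM in MDA-MB-231 (7.29 ± 0.16). PLAT, tissue plasminogen activator, was higher (1.61 ± 0.07), and so was the clotting regulator THBD, thrombomodulin (2.35 ± 0.08). The urokinase receptor PLAUR was lower (-0.26 ± 0.07) and so was TFPI2, an inhibitor of serine proteases (-0.85 ± 0.07).

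Of 23 collagen genes, 15 were higher and 4 lower, with a median of 1.16 (0.52 with the TAF7 hairpin, and 0.28 with limma on log2(FPKM + 1) under the control hairpin). COL8A1 had 152 and 145 CPM in LM2 against 8.32 and 8.78 CPM in MDA-MB-231 (4.12 ± 0.09). The basement membrane chain COL4A5 had 31.0 and 25.7 CPM against 0 and 0.0559 CPM, a ratio of 1053 (95% counting interval 189 to 41641). COL1A1, the main chain of type I collagen, had 22.5 and 28.1 CPM against 5.04 and 4.03 CPM (2.47 ± 0.15), whereas its partner chain COL1A2 had 0 and 0 reads in LM2 against 1 and 0 in MDA-MB-231. COL7A1 of anchoring fibrils was higher (2.20 ± 0.14), as was LOX, the enzyme that cross-links collagen (1.64 ± 0.07).

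Integrins and laminins split by chain, 15 of 24 higher and 6 lower (median 0.64). LAMA3, a chain of laminin-332, had 63.4 and 63.7 CPM in LM2 against 4.58 and 4.98 CPM in MDA-MB-231 (3.73 ± 0.12). ITGB4, a chain of a receptor for this laminin, went the other way, with 21.1 and 21.6 CPM against 152 and 149 CPM (-2.82 ± 0.08, and -3.60 with the TAF7 hairpin). The collagen receptor chains ITGA1 and ITGA10 were higher (2.32 ± 0.11 and 2.74 ± 0.22), ITGA2 and ITGA3 less so (0.72 ± 0.07 each), and the laminin chain LAMA4 was lower (-2.31 ± 0.16). In CAVIN2, a coat protein of caveolae, the lines were also far apart: 18.7 and 16.5 CPM in LM2 against 346 and 337 CPM in MDA-MB-231 (-4.28 ± 0.08, and -4.14 with the TAF7 hairpin). CAV1, the caveolin that forms them, was lower with the control hairpin (-0.80 ± 0.07) and higher with the TAF7 hairpin (0.22).

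Genes for inflammatory cytokines were among the most different between the lines. NF-kB is a family of dimeric factors, held in the cytoplasm by inhibitors such as NFKBIE and released by signals such as interleukin-1, that bind short motifs in the promoters of cytokine genes and of their own inhibitors. Of 24 listed NF-kB cytokines and chemokines 16 passed the filter, and 14 were higher and 2 lower in LM2 (median 3.15). IL1B, interleukin-1 beta, had 1088 and 1040 CPM in LM2 against 4.99 and 4.98 CPM in MDA-MB-231, 213-fold higher (7.74 ± 0.10, edgeR adjusted p = 1.16e-46). CSF3, the growth factor of neutrophils, had 270 and 272 CPM against 0.156 and 0.336 CPM (10.09 ± 0.15), and IL6 had 86.8 and 80.6 CPM against 0.520 and 0.448 CPM (7.41 ± 0.17). In these 3 genes the LM2 libraries were high and alike, and both MDA-MB-231 libraries lay far below them, at 10 reads or fewer each for CSF3 and IL6 but not for IL1B. IL24 was higher as well (7.07 ± 0.28).

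CXC chemokines that draw neutrophils were higher by less. CXCL8 had 680 and 610 CPM in LM2 against 130 and 134 CPM in MDA-MB-231, 4.89-fold higher (2.29 ± 0.07). CXCL1 had 77.9 and 78.1 CPM against 8.84 and 7.72 CPM (3.23 ± 0.10). CXCL2 (3.96 ± 0.11) and CXCL3 (4.46 ± 0.13) were further apart, and so was the lymphocyte and dendritic cell chemokine CCL20 (4.22 ± 0.24). One cytokine of the list was clearly lower: IL11 had 39.6 and 38.8 CPM in LM2 against 210 and 212 CPM in MDA-MB-231 (-2.43 ± 0.08, and -2.30 with the TAF7 hairpin). Several others of the family were at or near the detection limit in both lines, among them TNF (3 and 4 reads against 1 and 1), CCL2 (0 and 0 against 2 and 1) and CXCL10 (1 and 2 against 3 and 0).

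The promoters of 3 of these genes are printed because a motif of NF-kB lies close to the start in each. The windows are the 150 bases before the start (RefSeq, GRCh38.p14, plus strand, chr4:73740419-73740568 for CXCL8, chr4:73869243-73869392 for CXCL1 and chr7:22727050-22727199 for IL6), with the motif in capitals.
CXCL8: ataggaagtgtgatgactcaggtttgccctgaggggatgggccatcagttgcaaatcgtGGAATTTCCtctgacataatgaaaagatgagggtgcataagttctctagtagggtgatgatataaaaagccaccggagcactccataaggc
CXCL1: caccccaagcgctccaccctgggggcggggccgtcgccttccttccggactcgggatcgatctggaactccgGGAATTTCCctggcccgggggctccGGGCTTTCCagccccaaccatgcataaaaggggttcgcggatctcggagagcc
IL6: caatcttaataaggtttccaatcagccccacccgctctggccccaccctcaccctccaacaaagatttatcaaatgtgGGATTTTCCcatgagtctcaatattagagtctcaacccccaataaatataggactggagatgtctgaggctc
The motif searched, on both strands, was GGNNTTTCC, the shared core of many NF-kB sites. It was found in 8 of the 13 tested cytokine genes with a window (61.5%), in 10 of the 19 NF-kB subunits, inhibitors and other targets (52.6%) and in 4.82% of all 11190 tested genes with one. A gene counted where any of its windows held the motif. Both lists were chosen as NF-kB genes, so their high shares were built in and say nothing about the line difference. CXCL2 and CXCL3, near relatives of CXCL1, also held the motif in 2 places, and CCL20 held it on the other strand. NFKB1 and REL, both lower in LM2, held it as well, whereas IL1B and CSF3 were not among the genes in which it was found. A match in a window is a description and not a site shown to be bound, and where none was found only these letters are missing from the window.

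Regulators and other targets of NF-kB were higher in 15 of 21 cases and lower in 4 (median 1.24, or 0.68 with limma on log2(FPKM + 1)). TNFAIP3, the ubiquitin-editing inhibitor A20, had 73.5 and 87.3 CPM in LM2 against 12.8 and 16.4 CPM in MDA-MB-231 (2.46 ± 0.10). NFKBIE (1.93 ± 0.12) and NFKBIZ (2.16 ± 0.08), both inhibitor-type proteins, BIRC3, an inhibitor of apoptosis (2.18 ± 0.08), and the adhesion molecule ICAM1 (2.44 ± 0.11) were higher. BCL2A1, an antiapoptotic relative of BCL2, had 34.9 and 29.9 CPM against 0.208 and 0.280 CPM (7.02 ± 0.23). Of the subunits, NFKB2 was higher (1.30 ± 0.07) and NFKB1 and REL were slightly lower (-0.20 ± 0.08 and -0.49 ± 0.18). Neither call held under every alternative. NFKB1 had an edgeR adjusted p of 0.242 without LM2 replicate 2 (-0.13) and 0.282 without MDA-MB-231 replicate 3 (-0.13), and with all libraries 0.0505 by DESeq2 and 0.0906 by limma on log2(FPKM + 1). REL had an edgeR adjusted p of 0.0833 without LM2 replicate 3 (-0.44) and 0.0738 without MDA-MB-231 replicate 2 (-0.47), folds close to that with all libraries, and with all libraries 0.0724 by DESeq2 and 0.217 with GC and length offsets (-0.24).

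Complement and acute-phase genes went with them, 11 of 13 higher and 0 lower (median 1.85). C3, the central complement component, had 109 and 123 CPM in LM2 against 0.208 and 0.112 CPM in MDA-MB-231 (9.43 ± 0.19). SAA1, serum amyloid A, had 65.3 and 63.0 CPM against 5.10 and 4.53 CPM (3.73 ± 0.12), and the pentraxin PTX3 had 328 and 302 CPM against 39.8 and 41.6 CPM (2.95 ± 0.07). The proteases C1R and C1S, which start the classical pathway, were higher as well (1.83 ± 0.15 and 3.66 ± 0.30).

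Most of this inflammatory difference was smaller under the TAF7 hairpin. The cytokine list had a median of 0.54 there, with 7 of 16 higher and 6 lower, and the interaction was called for 14 of 16. In IL1B the LM2 mean was 140.2 CPM and the MDA-MB-231 mean 36.8 CPM with the TAF7 hairpin, so the difference came to 1.93, against 7.74 with the control hairpin (interaction 5.81, edgeR adjusted p = 5.25e-36). In CXCL8 it changed direction: LM2 had 79.5 and 78.5 CPM and MDA-MB-231 had 163 and 165 CPM with the TAF7 hairpin (-1.05, interaction 3.34). ICAM1 also changed direction (-0.66). CSF3 (7.27), IL6 (3.22) and C3 (3.46) stayed higher in LM2 by smaller amounts. For the NF-kB regulators the median was 0.03 with the TAF7 hairpin, with 10 of 21 higher and 8 lower, and for complement and acute-phase genes it was 0.69.

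**Figure D3:**
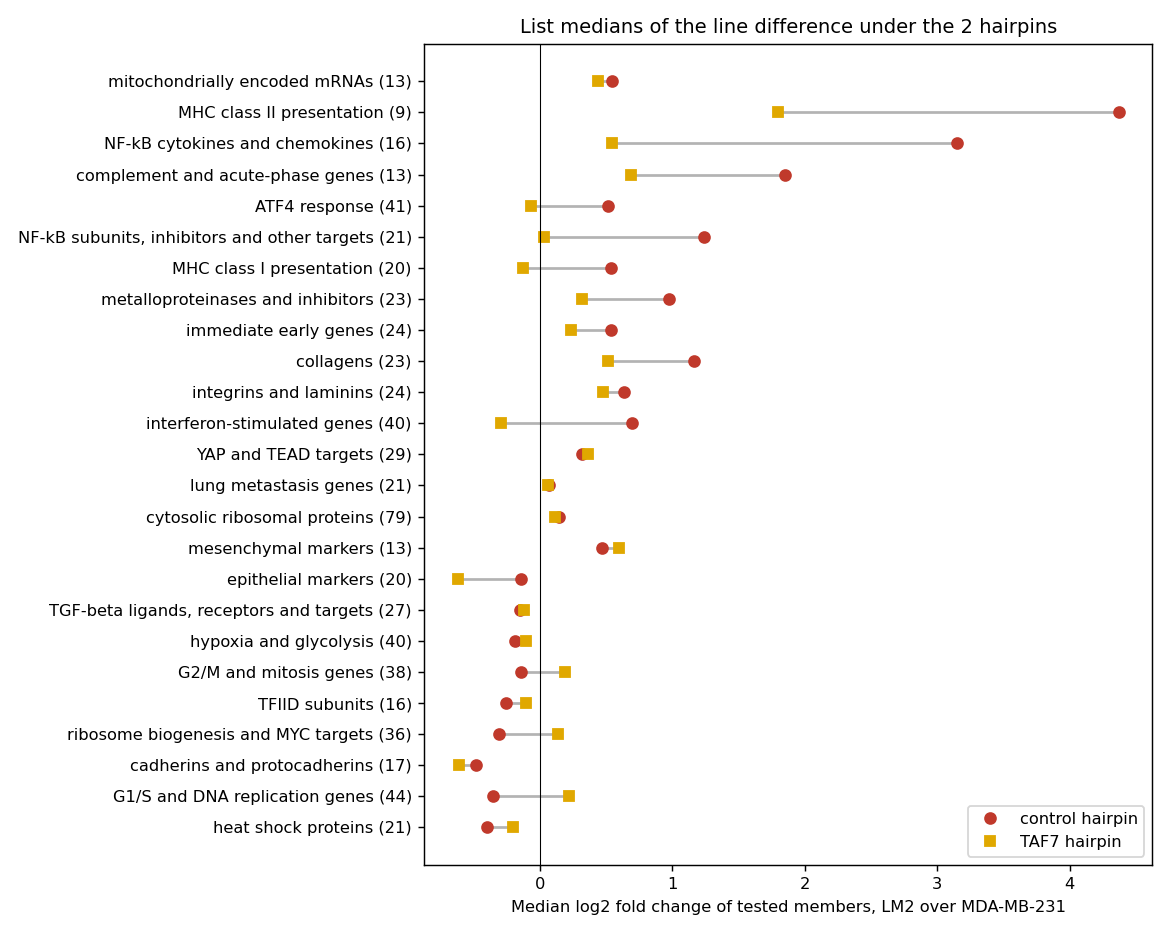
Median log2 fold change (LM2 over MDA-MB-231) of the tested members of 25 gene lists, with the number of members in brackets, for the control hairpin (circles) and the TAF7 hairpin (squares). NF-kB cytokines had a median of 3.15 with the control hairpin and 0.54 with the TAF7 hairpin, and replication genes -0.36 and 0.22. No test was made on the lists, and the class II medians include genes at 0 reads in MDA-MB-231, whose fitted values depend on the prior count.

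Genes of interferon response and antigen presentation came next. Of 40 interferon-stimulated genes 24 were higher and 8 lower (median 0.70, and -0.29 with the TAF7 hairpin), so the list did not move one way. BST2, tetherin, had 25.3 and 26.0 CPM in LM2 against 1.04 and 0.448 CPM in MDA-MB-231 (5.08 ± 0.20). IFIT2 had 76.3 and 78.3 CPM against 16.5 and 17.1 CPM (2.20 ± 0.09), and the related IFIT3 was higher too (1.83 ± 0.09), as was IFIT1. OAS2 was higher (3.42 ± 0.25) and its neighbour OAS1 lower (-1.73 ± 0.25), and USP18, which removes ISG15 from proteins, was lower (-1.90 ± 0.21). Under the TAF7 hairpin IFIT1 and IFIT2 were not called (0.02 and -0.08), IFIT3 was higher by less (0.51) and BST2 stayed higher.

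For class I presentation 14 of 20 were higher and 4 lower (median 0.53). HLA-B had 91.9 and 91.8 CPM in LM2 against 40.3 and 41.2 CPM in MDA-MB-231 (1.17 ± 0.08), and HLA-C was not called (0.13 ± 0.08, edgeR adjusted p = 0.139, though 0.0453 without LM2 replicate 2). B2M, the shared light chain, was higher (0.53 ± 0.07), as were the immunoproteasome subunit PSMB9 (1.56 ± 0.16) and NLRC5, the activator of class I genes (1.30 ± 0.16). With the TAF7 hairpin HLA-B was not called (-0.17) and HLA-C was lower in LM2 (-0.91). HLA genes are highly variable and alike in sequence, so how reads were assigned among them is uncertain.

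Class II genes are normally restricted to antigen-presenting cells and governed by the activator CIITA. In LM2, CD74, CIITA and CTSS were read, while the chains that present peptide were low or at 0 reads. CD74, the invariant chain, had 87.6 and 88.5 CPM in LM2 against 0.156 and 0 CPM in MDA-MB-231, a ratio of 1089 (95% counting interval 372 to 5285). CIITA had 8.04 and 7.86 CPM against 0.468 and 0.280 CPM (4.37 ± 0.30), and the protease CTSS, cathepsin S, which trims the invariant chain, had 22.2 and 20.4 CPM against 0.416 and 0.112 CPM (6.27 ± 0.26). The chains that present peptide stayed low: HLA-DRA had 0.550 and 0.669 CPM in LM2 against 0 and 0 in MDA-MB-231 (at least 3.77-fold higher), and HLA-DRB1 had 4 and 2 reads against 0 and 0. HLA-DPB1 had 0 and 1 reads in LM2 against 0 and 0, and HLA-DQA1 and HLA-DQB1 had 0 reads in all 8 libraries. Of 15 listed genes 9 passed the filter and all 9 were higher, with a median of 4.37, or 2.36 with genes at 0 reads set at their lower bound and 0.64 with limma on log2(FPKM + 1). Since a gene silent in MDA-MB-231 can pass only through LM2, that count supports nothing further. For CD74 and CIITA the log2 fold changes were close under the TAF7 hairpin (10.19 and 4.32, interactions not called), where the list median was 1.79.

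Checkpoint ligands were divided, 9 of 22 higher and 4 lower (40.9% and 18.2%, against 32.2% and 32.1% of all tested genes). CD274, which encodes PD-L1, had 65.6 and 61.7 CPM in LM2 against 25.4 and 24.3 CPM in MDA-MB-231 (1.36 ± 0.09), PDCD1LG2 was higher (2.33 ± 0.28) and CD276 lower (-0.81 ± 0.08). TNFSF4, the OX40 ligand, was higher (3.47 ± 0.27). NT5E, the surface enzyme that makes adenosine, was lower (-0.62 ± 0.07).

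**Figure D4:**
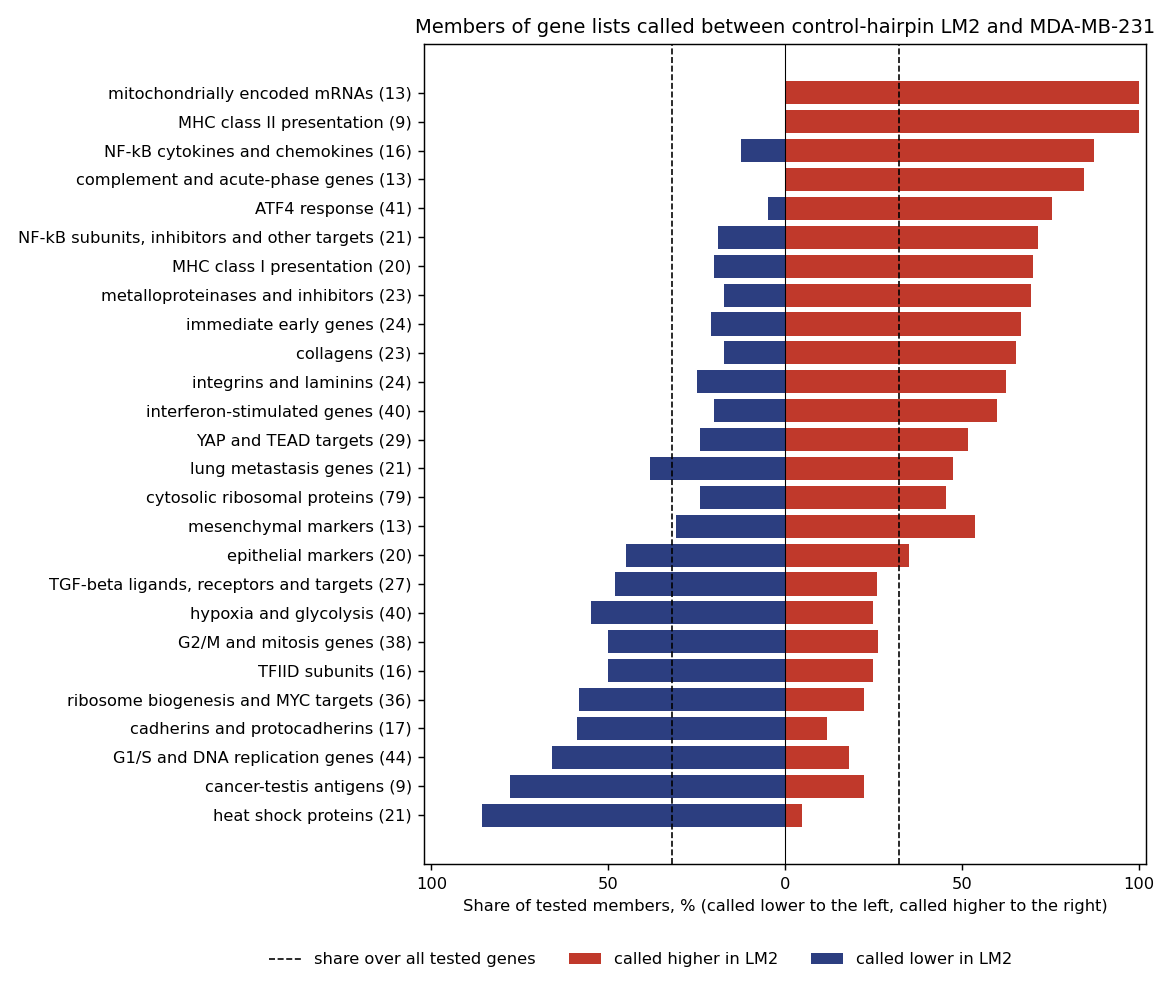
Share of the tested members of 26 gene lists called higher (right) or lower (left) in control-hairpin LM2, with the number of tested members in brackets. Dashed lines mark the shares over all tested genes, 32.2% higher and 32.1% lower. All 13 mitochondrially encoded mRNAs and all 9 tested members of the class II presentation list were higher, and 18 of 21 heat shock genes were lower. Class II genes silent in MDA-MB-231 could pass the filter only through LM2.

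Both lines expressed vimentin, the intermediate filament of mesenchymal cells, and almost no E-cadherin. VIM, which encodes vimentin, had 1498 and 1400 CPM in LM2 against 948 and 969 CPM in MDA-MB-231 (0.60 ± 0.08), and CDH1, which encodes E-cadherin, had 0 and 2 reads against 2 and 3. Other markers did not go with these: N-cadherin, CDH2, had 7 and 4 reads in LM2 against 5 and 1 in MDA-MB-231, and TWIST1 had 0 reads throughout. The epithelial marker EPCAM was read in both lines, with 150 and 142 reads in LM2 against 141 and 137 in MDA-MB-231. Of 13 tested mesenchymal markers 7 were higher and 4 lower. The repressors of E-cadherin split: ZEB1 (1.07 ± 0.08) and SNAI2 (1.24 ± 0.11) were higher, and ZEB2 (-0.95 ± 0.09) and SNAI1 (-1.16 ± 0.16) lower. Epithelial markers were 7 of 20 higher and 9 lower. CLDN4, a tight-junction claudin, had 0.771 and 1.06 CPM in LM2 against 29.3 and 29.8 CPM in MDA-MB-231 (-5.00 ± 0.19), and P-cadherin, CDH3, had 0.110 and 0.111 CPM against 4.42 and 5.48 CPM (-5.40 ± 0.47). In the other direction, the protease inhibitor SPINT1 (4.47 ± 0.42) and the claudin CLDN1 (1.67 ± 0.18) were higher. CLDN1 was lower with the TAF7 hairpin (-0.86).

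Among keratins of simple epithelia, KRT7, KRT8 and KRT19 were lower in LM2, with KRT7 at 190 and 191 CPM against 458 and 466 CPM (-1.28 ± 0.07), and KRT8 and KRT19 lower by less (-0.61 ± 0.07 and -0.53 ± 0.08). Over the 10 tested keratins 3 were higher and 4 lower. Of receptors and regulators that mark breast subtypes, FOXA1, a luminal pioneer factor, was lower (1.71 and 2.56 CPM against 8.99 and 7.83 CPM), ERBB2, which encodes HER2, was not called (0.14 ± 0.08, edgeR adjusted p = 0.106), and the surface markers CD44 and CD24 were both higher (0.59 ± 0.07 and 1.57 ± 0.14).

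Genes of growth factor signalling showed no shared direction. EGFR itself was slightly higher (265 and 261 CPM in LM2 against 216 and 223 CPM in MDA-MB-231, 0.26 ± 0.07), while its ligands TGFA (-1.22 ± 0.08), AREG (-0.78 ± 0.12) and EREG and the ERBB3 ligand NRG1 (-1.12 ± 0.07) were lower. Of the EGFR family and its ligands 4 of 15 were higher and 7 lower. MYC, the growth-regulating transcription factor, had 288 and 288 CPM in LM2 against 73.5 and 69.9 CPM in MDA-MB-231, 4.02-fold higher (2.01 ± 0.07, and 1.63 with the TAF7 hairpin). Among MAP kinase feedback genes, the phosphatases DUSP1 (1.40 ± 0.07) and DUSP5 (1.19 ± 0.07) were higher, and DUSP4 (-1.03 ± 0.07), SPRY1 (-1.01 ± 0.09) and SPRED2 (-1.21 ± 0.07) lower. Immediate early genes were more often higher, 16 of 24 with 5 lower (median 0.53), with FOS at 78.5 and 69.7 CPM against 24.2 and 23.8 CPM (1.63 ± 0.08) and FOSL2 lower (-0.87 ± 0.07).

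Targets of YAP and TEAD, which read out cell stretch and density, were 15 of 29 higher and 7 lower (median 0.32). GADD45A had 256 and 236 CPM in LM2 against 38.1 and 36.5 CPM in MDA-MB-231 (2.72 ± 0.08), and ANKRD1 had 886 and 817 CPM against 420 and 419 CPM (1.02 ± 0.07). The classical targets CCN1 (-0.41 ± 0.08) and CCN2 (-0.39 ± 0.07) were lower. In TGF-beta signalling 7 of 27 were higher and 13 lower. The receptor TGFBR2 had 309 and 331 CPM in LM2 against 106 and 108 CPM in MDA-MB-231 (1.59 ± 0.08), and the contractile gene TAGLN had 22.5 and 21.7 CPM against 1.04 and 1.62 CPM (4.06 ± 0.18). The signal transducer SMAD3 was lower (-1.08 ± 0.07), and so was LTBP3, which stores latent TGF-beta in matrix (-1.26 ± 0.07). Among BMP genes the antagonist NOG was higher (3.20 ± 0.15), BMP2 had 4.95 and 4.57 CPM against 0 and 0 (at least 29.4-fold higher), and the inhibitory SMAD6 was lower (3.58 and 2.90 CPM against 24.5 and 24.4 CPM, -2.92 ± 0.16).

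Genes of the amino acid and stress response controlled by ATF4 were mostly higher, 31 of 41 with 2 lower (median 0.51), while ATF4 mRNA itself was not called (-0.13 ± 0.07, edgeR adjusted p = 0.0975). CTH, which makes cysteine from cystathionine, had 67.9 and 65.3 CPM in LM2 against 9.51 and 9.51 CPM in MDA-MB-231 (2.81 ± 0.10). DDIT3, the factor CHOP, was higher (1.90 ± 0.13), as were SESN2, a sensor of leucine (1.82 ± 0.10), and PCK2, the mitochondrial PEP carboxykinase (1.52 ± 0.08). Under the TAF7 hairpin the list median was -0.07, with 16 higher and 15 lower, and CTH differed by 0.31. VEGFA, the endothelial growth factor that belongs to this list and to the hypoxia list, had 340 and 338 CPM in LM2 against 126 and 131 CPM in MDA-MB-231 (1.40 ± 0.07) but was lower with the TAF7 hairpin (-0.57).

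Heat shock proteins, which fold and protect other proteins, were mostly lower. Of 21 heat shock genes 18 were lower and 1, HSPB8, higher (median -0.40, and -0.20 with the TAF7 hairpin). HSPD1, the mitochondrial chaperonin, had 428 and 468 CPM in LM2 against 1427 and 1445 CPM in MDA-MB-231 (-1.68 ± 0.07). HSP90AA1 had 2378 and 2308 CPM against 4854 and 4930 CPM (-1.06 ± 0.08), and HSPH1 was lower by more (-1.43 ± 0.07). HSPA8, the constitutive HSC70, was lower with the control hairpin (-0.90 ± 0.09) and higher with the TAF7 hairpin (0.23). HSPA5, the chaperone of the endoplasmic reticulum, was lower in both (-0.42 ± 0.07 and -0.57).

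Genes of cell death and of the p53 response were more often higher than lower. Over all tested genes 32.2% were higher and 32.1% lower. Of 23 p53 targets 14 were higher and 6 lower (median 0.34), with the cell cycle inhibitor CDKN1A at 76.7 and 81.6 CPM in LM2 against 35.7 and 34.2 CPM in MDA-MB-231 (1.18 ± 0.08). Of 27 BCL2 family members and caspases 15 were higher and 7 lower (median 0.44). CASP1, the protease that matures interleukin-1 beta, had 12.6 and 9.53 CPM against 0.520 and 0.615 CPM (4.27 ± 0.27), and the related inflammatory caspase CASP4 had 104 and 109 CPM against 34.8 and 38.0 CPM (1.55 ± 0.08). HRK, a pro-death member, had 4.46 and 5.46 CPM in LM2 against 0 and 0 in MDA-MB-231, at least 30.6-fold higher. BCL2 itself was lower (-0.82 ± 0.13).

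Regulators of actin that are typical of leukocytes were 5 of 14 higher and 4 lower, near the 32.2% and 32.1% of all tested genes. LCP1, which bundles actin, had 193 and 199 CPM in LM2 against 22.5 and 25.4 CPM in MDA-MB-231 (3.03 ± 0.08). The Rac activators DOCK2 (10.6 and 11.2 CPM against 0.988 and 1.12 CPM) and VAV1 (14.5 and 14.2 CPM against 2.81 and 2.07 CPM) were higher, and ARHGDIB was lower (-0.93 ± 0.07). Cadherins and protocadherins were 2 of 17 higher and 10 lower (median -0.48, but 0.0098 with limma on log2(FPKM + 1) and an FPKM filter). PCDH7 had 3.14 and 3.18 CPM in LM2 against 11.2 and 11.2 CPM in MDA-MB-231 (-1.82 ± 0.17), and FAT3 had 16.8 and 15.8 CPM against 0.156 and 0.280 CPM (6.20 ± 0.28). Of genes often used to normalise expression, 12 of 17 were lower and 2 higher (median -0.26), with HPRT1 at 103 and 90.1 CPM in LM2 against 177 and 187 CPM in MDA-MB-231 (-0.91 ± 0.07).

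Glycolytic and hypoxia genes were 22 of 40 lower and 10 higher (median -0.19). PGK1, on chromosome X, had 428 and 441 CPM in LM2 against 885 and 937 CPM in MDA-MB-231 (-1.07 ± 0.08), and the glucose transporter SLC2A1 (-0.83 ± 0.07), PKM (-0.70 ± 0.08) and ENO1 (-0.46 ± 0.08) were lower. ADM, adrenomedullin, and EPAS1, which encodes HIF-2 alpha, were higher (1.81 ± 0.08 and 1.05 ± 0.08). For NRF2 targets 9 of 22 were higher and 9 lower (40.9% each way, against 32.2% and 32.1% of all tested genes). The quinone reductase NQO1 was lower (164 and 163 CPM against 324 and 331 CPM) and the cystine transporter SLC7A11 higher (1.04 ± 0.07). Cholesterol genes were 7 of 30 higher and 10 lower with the control hairpin, and 23 of 30 higher and 1 lower with the TAF7 hairpin (medians -0.04 and 0.52). HMGCS1, an early enzyme of the pathway, was lower with the first (-0.37 ± 0.08) and higher with the second (0.74).

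Genes of replication and of ribosome production were more often lower than higher with the control hairpin. The same held for the genes often used to normalise expression, 12 of 17 lower (median -0.26, and 0.03 with the TAF7 hairpin). Of protein-coding genes 32.7% were higher and 36.6% lower. Medians of this size were therefore not particular to the lists below. Of 44 G1/S and replication genes 29 were lower and 8 higher (median -0.36), of 38 G2/M genes 19 lower and 10 higher (-0.15), and of 36 ribosome biogenesis and MYC target genes 21 lower and 8 higher (-0.31). MCM7, a subunit of the replicative helicase, had 292 and 295 CPM in LM2 against 637 and 656 CPM in MDA-MB-231 (-1.14 ± 0.07), and POLA1, the catalytic subunit of DNA polymerase alpha, had 37.0 and 42.4 CPM against 98.7 and 98.8 CPM (-1.31 ± 0.08). The mitotic kinase CDK1 was higher (0.74 ± 0.07). LYAR, a nucleolar protein, was lower (-2.19 ± 0.08), and NPM1, the abundant nucleolar chaperone, higher (0.67 ± 0.08). With the TAF7 hairpin the medians of the G1/S, G2/M and ribosome biogenesis lists were 0.22, 0.19 and 0.14. The interaction was called, always towards a lower value with the control hairpin, for 35 of the 44 G1/S genes. The medians of the interferon and ATF4 lists likewise had opposite signs under the 2 hairpins.

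Ribosomal protein genes were 36 of 79 higher and 19 lower (median 0.15), with RPL14, on chromosome 3, higher (1.10 ± 0.08) and RPS7, on chromosome 2, lower (462 and 414 CPM in LM2 against 1090 and 1126 CPM in MDA-MB-231, -1.34 ± 0.08). Nuclear genes of oxidative phosphorylation were evenly split, 16 of 55 each way (29.1%, near the 32.2% and 32.1% of all tested genes). All 13 mitochondrially encoded mRNAs were higher in LM2 (median 0.55, and 0.44 with the TAF7 hairpin). MT-ND1 had 3419 and 3702 CPM against 1808 and 1486 CPM (1.11 ± 0.11), and MT-CO1 had 14382 and 13906 CPM against 8900 and 7880 CPM (0.75 ± 0.11). These transcripts share 1 genome and moved with the share of mitochondrial counts given above, which differed between libraries of 1 group as well, so their agreement is not that of 13 independent genes. Of 16 TFIID subunits, TAF7's complex, 4 were higher and 8 lower (median -0.26). TAF9 was the highest (0.94 ± 0.08), and TAF1, the scaffold on chromosome X (-0.87 ± 0.10), and TBP, the subunit that binds the TATA box (-0.68 ± 0.10), were lower.

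LincRNA and antisense genes were more often higher than lower in LM2, whereas processed pseudogenes were not (12.8% of 328 higher, 15.2% lower, median -0.04). For antisense genes the share higher was near that of protein-coding genes, and it was the share lower that differed. Of 758 lincRNA genes 36.3% were higher and 15.6% lower (median 0.50, and 0.13 with the TAF7 hairpin), and of 803 antisense genes 32.1% were higher and 7.85% lower (median 0.51, and 0.18), against 32.7% and 36.6% of 12888 protein-coding genes (median -0.03). Counts in lincRNA and antisense genes were 0.720% and 0.697% of the LM2 control libraries against 0.525% and 0.522% of the MDA-MB-231 control libraries. The share of such counts and the number of genes with reads moved together with this difference, and their part in it was not tested. The counting of strands is not given in the sources used here, so reads of an antisense gene and of its partner cannot be told apart. AFAP1-AS1, antisense to AFAP1, had 0.0550 and 0.223 CPM in LM2 against 115 and 117 CPM in MDA-MB-231 (-9.64 ± 0.18, and -8.80 with the TAF7 hairpin). LINC00839 had 0 and 0.0557 CPM against 16.3 and 15.4 CPM. NUTM2B-AS1 had 12.1 and 11.1 CPM in LM2 against 0.0520 and 0.168 CPM in MDA-MB-231 (6.66 ± 0.35).

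The line difference was also uneven along the genome. On chromosome 3, 65.4% of 915 tested genes were higher and 9.40% lower (median 0.55, and 0.50 with the TAF7 hairpin), and on chromosome 10, 57.1% of 636 were higher (0.44 and 0.38). On chromosome 9, 55.2% of 596 were lower (-0.44 and -0.46), and on chromosome 22, 55.3% of 378 (-0.44 and -0.25). Over 23 chromosomes the medians under the 2 hairpins had the same sign in 21, with a Pearson correlation of 0.96 across chromosomes, given as a description. DNA copy number was not measured in the data used here.

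**Figure D5:**
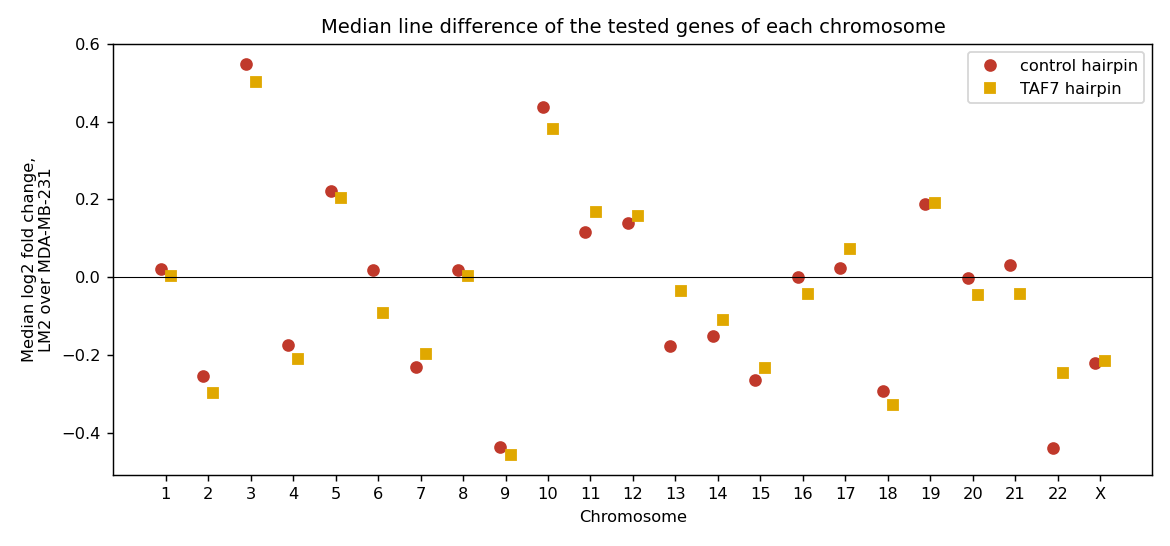
Median log2 fold change (LM2 over MDA-MB-231) of the tested genes on each chromosome, for the control hairpin (circles) and the TAF7 hairpin (squares). Chromosomes 3 and 10 have the highest medians under both hairpins, 0.55 and 0.44 with the control hairpin, and chromosome 9 has a median of -0.44 with the control hairpin and -0.46 with the TAF7 hairpin.

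Some markers of other cell types were read in both lines and others were at or near 0 reads. Of 17 leukocyte markers 2 passed the filter, with none higher, 6 and 7 of the 17 were at 0 reads in the LM2 control libraries and 9 and 9 in the MDA-MB-231 control libraries, and PTPRC, the common leukocyte antigen, had 5 and 2 reads against 0 and 0. LAPTM5, a lysosomal protein of blood cells that made up most of the list's reads, was lower in LM2 (85.3 and 91.0 CPM against 142 and 147 CPM). Endothelial markers were 5 of 7 higher and 1 lower, and their summed level was 168.5 and 169.8 CPM in LM2 against 59.2 and 65.7 CPM in MDA-MB-231, made up in LM2 mainly by ESAM (84.5 and 88.9 CPM against 20.1 and 21.1 CPM) and ROBO4 (means of 53.2 CPM against 9.43 CPM). CDH5, the defining endothelial cadherin, had 1 and 0 reads in LM2 against 1 and 1 in MDA-MB-231, and PECAM1 was not called. Of 15 lung epithelium markers 5 passed the filter. The surfactant genes SFTPA1 and SFTPA2 had 0 reads in all 8 libraries. NKX2-1, the lung and thyroid homeobox factor, was lower in LM2, with 1.32 and 1.45 CPM against 32.8 and 30.4 CPM (-4.50 ± 0.17), and ABCA3, the surfactant lipid transporter, was higher (2.18 ± 0.14). Fibroblast and mural markers summed to 35.4 and 42.0 CPM in LM2 against 13.8 and 13.4 CPM in MDA-MB-231, with 2 of 4 tested members higher, while COL3A1 had 1 and 3 reads in LM2 against 1 and 3 in MDA-MB-231.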

How the data were processed

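RNA of the 4 groups was sequenced after mRNA enrichment, per the labels' protocols. Reads were aligned with STAR 2.7.10a to hg19, per the submitters' processing notes. No source used here gives the counter, its use of strand or the annotation. The deposited data hold raw counts per gene, from which the main tests were made, and the authors' FPKM values, which were used for alternatives only. Over 1706 genes of at least 20 FPKM, counts divided by FPKM and library total differed from the gene's median across libraries by a median of 0.00322%. This check compares libraries within a gene only. Gene names came from the count table, and gene types and chromosomes from GENCODE 29, which held 94.8% of the identifiers. Library totals are given in the results, and intervals and floors cover counting error only.

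Genes passing edgeR's filterByExpr over the 8 libraries were fitted with edgeR 4.0.16 in R 4.3.3 (TMM scaling, quasi-likelihood test, 1 mean per group, 4 residual degrees of freedom), and p-values were adjusted over all 15923. The contrasts were LM2 against MDA-MB-231 with each hairpin and the difference of these (the interaction). The scripts were tested on simulated counts. The alternatives were other scalings, filters and samples in the fit, a replicate block, leaving out each control library, a minimum fold change, DESeq2 1.42.0, limma 3.58.1 on log2(FPKM + 1 or 0.1), and offsets for GC content and length.

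The 47 gene lists (1178 genes) and the comparison were chosen with earlier results of these data known. Genes named were the 15 highest and lowest, those with the largest CPM gains and losses, up to 8 called members of each list by size of change, averaging 1 CPM or more, plus its first listed members, genes read in 1 line only, a few long noncoding genes and TAF7. A fold against libraries with 0 reads is a lower bound at a floor of 3 reads per library. With 1 to 3 reads in the lower line the ratio is given with its exact counting interval. Some genes that the naming rule or the lists would bring up are not reported here.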

Additional observations from a re-analysis of the deposited data

Results flagged for a closer look

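The genes below are those named above for which the difference between the lines itself differed between the hairpins, by the interaction term of the edgeR fit at an adjusted p under 0.05. The test called 25.8% of all genes, so a call is common, and 110 of the 197 named genes passed it. Many of the named genes were chosen by the size of their control-hairpin difference, which is part of the interaction. Their larger share, and the size and sign of their values, were therefore favoured by that choice. Each number in brackets is the log2 fold change of LM2 over MDA-MB-231 with the control hairpin minus that with the TAF7 hairpin, so a positive number means that LM2 stood higher relative to MDA-MB-231 with the control hairpin.

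The largest positive values were in inflammatory genes. For cytokines and chemokines they were IL1B (5.81), IL24 (4.80), CCL20 (4.38), IL6 (4.19), CXCL8 (3.34), CXCL2 (3.10), CXCL1 (3.00), CXCL3 (2.92) and CSF3 (2.82). For complement, acute-phase and prostaglandin genes they were C3 (5.97), C1S (3.10), SAA1 (2.78), PTX3 (1.95), C1R (1.14) and PTGS2 (2.01). NF-kB regulators, adhesion molecules and other targets gave VCAM1 (6.77), BCL2A1 (5.01), ICAM1 (3.10), TNFAIP3 (1.91), NFKB2 (1.32), NFKBIE (1.23), NFKBIZ (1.17), BIRC3 (1.10) and CASP1 (2.10). In interferon, antigen presentation and checkpoint genes the values were IFIT2 (2.28), IFIT1 (1.48), IFIT3 (1.32), OAS1 (1.60), BST2 (1.08), PSMB9 (1.86), HLA-B (1.35), HLA-C (1.04), B2M (0.33), NLRC5 (0.67), CTSS (1.64), PDCD1LG2 (1.65) and CD274 (0.98).

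Matrix, protease and receptor genes were also mostly positive. These were COL4A5 (3.38), COL7A1 (1.69), COL1A1 (0.76), LOX (1.05), SPARC (0.33), LAMA4 (2.13), LAMA3 (0.83), ITGA1 (1.31) and ITGB4 (0.79) for matrix and its receptors, and SERPINB2 (1.68), PLAT (0.89), TFPI2 (0.84), THBD (0.77), TIMP2 (0.46) and MMP14 (0.42) for proteases and their inhibitors. Stress and hypoxia genes gave CTH (2.50), VEGFA (1.97), EPAS1 (1.92), DDIT3 (1.38), SESN2 (1.25), PCK2 (1.22), GADD45A (1.67), ADM (0.62) and CDKN1A (0.67). Among growth factor and TGF-beta genes they were AREG (2.20), EREG (0.82), TGFA (0.36), DUSP5 (0.99), MYC (0.37), LTBP3 (1.51), TGFBR2 (0.57) and SMAD3 (0.35). The others with a positive value were CLDN1 (2.53), PECAM1 (2.46), LCP1 (1.05), ZEB2 (0.50) and MT-CO1 (0.41).

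The following values were negative. Chaperone, replication and nucleolar genes gave HSPA8 (-1.13), HSPH1 (-0.73), HSPD1 (-0.60), HSP90AA1 (-0.54), MCM7 (-0.63), POLA1 (-0.70), LYAR (-0.34) and NPM1 (-0.39). Keratins and YAP or BMP genes gave KRT7 (-0.75), KRT19 (-0.69), KRT8 (-0.50), KRT81 (-0.31), ANKRD1 (-1.02), CCN2 (-0.67), CCN1 (-0.53), NOG (-1.04) and ID1 (-0.53). In MAP kinase feedback and insulin-like growth factor genes the values were DUSP1 (-0.45), SPRY1 (-0.45), DUSP4 (-0.32), IGFBP3 (-0.90), IRS1 (-0.38) and CAV1 (-1.02). Metabolic and other genes gave HMGCS1 (-1.10), NQO1 (-0.58), SLC7A11 (-0.29), HPRT1 (-0.27), ATF4 (-0.41), NT5E (-0.38), ARHGDIB (-0.37), BCL2 (-0.81), NKX2-1 (-1.16), MAGEB2 (-0.71), PCDH7 (-2.42) and FAT3 (-4.41), and TAF7 itself gave TAF7 (-0.34). For FAT3, with 0 reads in both MDA-MB-231 libraries with the TAF7 hairpin, and for VCAM1, with 0 reads in both MDA-MB-231 libraries with the control hairpin, the fitted value depends on the prior count. The direction of CXCL8, ICAM1, VEGFA, EPAS1, CLDN1, CAV1, HSPA8, HMGCS1, ID1, CCN2 and PCDH7 was opposite under the 2 hairpins and was called under each.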

How the results depend on the processing

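The number of genes called stayed within 1.5 times that reported, and its direction split between the control libraries near even, under other scalings, filters and samples in the fit, DESeq2, limma on FPKM and GC and length offsets. The exception was a test against a minimum log2 fold change of 1, which called 1955 genes between the control libraries (1239 higher, 716 lower), 1752 with the TAF7 hairpin (851 higher, 901 lower) and 116 for the interaction (110 higher, 6 lower). Leaving out 1 control library at a time gave 8982 to 9238 genes between the control libraries, 9747 to 9874 with the TAF7 hairpin and 2922 to 3499 for the interaction. With the TAF7 hairpin the split was 4924 higher and 5028 lower on counts, 3994 and 5338 with limma on log2(FPKM + 1) and 4063 and 5411 on log2(FPKM + 0.1). The direction split of the interaction depended on that threshold and on the scale: it was 1892 higher and 2221 lower on counts, 2096 and 998 with limma on log2(FPKM + 1), 2002 and 944 on log2(FPKM + 0.1), where the median over all genes moved to 0.10, and 1740 and 1007 with an FPKM filter. Replicate numbers recur across groups, but libraries with the same number did not deviate together (correlations of -0.06 to 0.02). This gave no sign that the numbers pair the libraries, though such a check cannot exclude a pairing. A replicate block gave 10203, 9901 and 4128 called genes for the 3 contrasts. Of 197 named genes, 190 kept direction and call under each alternative that gave them a value, apart from the minimum fold change. The FPKM filter left out 15 of the 197 and the stricter count filter 1, and of the 182 with a value under every alternative 176 kept both. The exceptions were NFKB1 and REL, given above, and the 5 genes that follow. Near-zero values that changed sign were those of ANGPTL4, 0.01 with each limma setting (0.01237 and 0.01269), and HLA-C, -0.05078 with GC and length offsets. TAF7 was called higher with limma on FPKM (0.13), and ATF4 lower without the filter (-0.16), with the 4 control libraries alone (-0.13) and with offsets (-0.29). With GC and length offsets ANGPTL4 was called lower (-0.19) and ERBB2 higher (0.16). Of 47 list medians, 20 were smaller by over 1.5 times with limma on log2(FPKM + 1), 2 were larger by as much and 1 had the other sign, and 8 changed sign under at least 1 alternative, among them those of the plasminogen and cadherin lists. The 2 libraries per line limit what can be said of genes with few reads.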

Other observations

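Genes of the insulin-like growth factor system and of caveolae were 6 of 17 higher and 7 lower in control-hairpin LM2 (median -0.12, and 0.22 with the TAF7 hairpin). IGFBP3, a secreted binding protein for these factors, had 86.6 and 85.6 CPM in LM2 against 24.3 and 23.9 CPM in MDA-MB-231 (1.84 ± 0.08). The adaptor IRS1 (-0.78 ± 0.07) and the receptor IGF1R (-0.44 ± 0.07) were lower. Replication-dependent histone genes, whose transcripts mostly lack a poly(A) tail and are poorly sampled after mRNA enrichment, were 1 of 16 higher and 3 lower with the control hairpin (median -0.26), and 0 of 16 higher and 10 lower with the TAF7 hairpin (median -1.24).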
